A study of Homo sapiens with 4 samples.

Results

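The 9 genes described here encode the class I antigen presentation machinery of the major histocompatibility complex: the heavy chains HLA-B, HLA-C and HLA-E, the light chain B2M, the peptide transporter subunits TAP1 and TAP2, the loading factor TAPBP (tapasin), the trimming enzyme ERAP1 and the transactivator NLRC5. They were chosen by name from 57773 genes in each deposited table. The names of 8 genes matched exactly, and TAP2 stands in the tables as TAP2_1. A second row, TAP2_2, lists no exons and held 0 reads in every library. The cells were A2780, an established line of human ovarian adenocarcinoma labelled WT and kept in RPMI medium with serum, and their RNA was sequenced. Wogonin, a plant flavone, was given at 10 ug/mL for 48 h (2 libraries, numbered 3 and 4). DMSO was the vehicle (2 libraries, numbered 1 and 2), for which no time is given. The study's question is about wogonin, tumour growth and DNA demethylation, and these libraries measure transcript levels only. The sources used here do not give the line's own HLA alleles, so reads were counted against the loci of a reference genome.

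Class I molecules sit on the surface of nearly every nucleated cell and show short peptides from inside the cell to CD8+ T cells. The proteasome cuts proteins into peptides, the TAP transporter carries them into the endoplasmic reticulum, ERAP1 trims them, and tapasin holds an empty heavy chain with its B2M light chain at the transporter until a peptide fits. HLA-E carries mainly peptides cut from the leader sequences of other class I chains and is read by NK cells. NLRC5 drives class I genes together with RFX, CREB/ATF and NF-Y factors at a shared promoter module of X and Y boxes, and interferon raises the whole set, in part through IRF1.

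Promoters are shown for 4 genes. HLA-B and HLA-C are neighbouring loci with similar letters that did not give the same test result, and B2M and TAP2 are the genes of the set whose higher level was called under every alternative tried. Each sequence is RefSeq's, build GRCh38.p14, and runs 5′ to 3′ on the gene's own strand from 250 bases before the start of the gene to 50 bases after it. Capitals mark CCAAT, the letters NF-Y binds, and TGACG, the core letters of CREB/ATF sites, on either strand (read backwards they are ATTGG and CGTCA). The regions are chr6:31357130-31357429 on the minus strand for HLA-B, chr6:31272043-31272342 on the minus strand for HLA-C, chr15:44711267-44711566 on the plus strand for B2M and chr6:32838690-32838989 on the minus strand for TAP2. These are coordinates of another build than the gene coordinates given further on, which are the deposited files' own.
HLA-B: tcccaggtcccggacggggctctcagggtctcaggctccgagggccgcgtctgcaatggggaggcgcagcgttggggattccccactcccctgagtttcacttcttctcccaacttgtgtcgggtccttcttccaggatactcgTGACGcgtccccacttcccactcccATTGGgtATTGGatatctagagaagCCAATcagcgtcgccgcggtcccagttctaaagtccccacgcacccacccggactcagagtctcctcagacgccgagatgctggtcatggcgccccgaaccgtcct
HLA-C: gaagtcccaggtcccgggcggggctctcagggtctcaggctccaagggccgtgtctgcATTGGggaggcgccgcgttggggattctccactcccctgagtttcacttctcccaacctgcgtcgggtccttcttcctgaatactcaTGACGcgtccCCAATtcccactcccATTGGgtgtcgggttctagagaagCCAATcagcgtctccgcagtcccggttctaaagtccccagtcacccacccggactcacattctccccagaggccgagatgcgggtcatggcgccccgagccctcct
B2M: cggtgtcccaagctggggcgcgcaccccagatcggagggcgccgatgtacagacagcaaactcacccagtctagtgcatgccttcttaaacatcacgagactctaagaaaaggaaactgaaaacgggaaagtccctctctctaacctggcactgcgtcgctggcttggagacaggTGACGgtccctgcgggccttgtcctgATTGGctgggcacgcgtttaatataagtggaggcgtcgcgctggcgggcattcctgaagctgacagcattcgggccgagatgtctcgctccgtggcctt
TAP2: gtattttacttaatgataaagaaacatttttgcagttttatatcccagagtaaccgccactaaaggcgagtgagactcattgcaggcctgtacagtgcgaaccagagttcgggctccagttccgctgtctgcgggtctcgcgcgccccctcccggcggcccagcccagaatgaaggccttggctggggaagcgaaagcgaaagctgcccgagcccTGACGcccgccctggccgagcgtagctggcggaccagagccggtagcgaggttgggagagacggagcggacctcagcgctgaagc

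The HLA-B and HLA-C promoters matched in 269 of 304 aligned columns, or 88.5%. In both, TGACG begins at about the same distance from the start (-106 in HLA-B and -105 in HLA-C), and a CCAAT follows at -56. B2M has TGACG at -75 and an ATTGG at -49, while TAP2 has TGACG at -35 and no CCAAT. RefSeq's table held promoters for 7 of the 9 genes (all but HLA-E and NLRC5), in 9 rows, since ERAP1 and TAP1 have 2 starts each. CCAAT was found in 5 of the 7 genes and in 34.6% of 34796 promoters of the same length, and TGACG in 4 of the 7 and in 24.5% of promoters. Both were found in HLA-B, HLA-C and B2M and in 8.66% of promoters. The interferon-type letters GAAA, 2 letters of any kind and GAAA, which IRF factors bind, were present in 5 of the 7 genes (B2M, ERAP1, TAP1, TAP2 and TAPBP) and in 3.57% of promoters; in B2M, TAP1 and TAPBP 2 such matches overlap each other. The letters TTCNNNGAA, of the STAT type, were present in 1 of the 7 (TAP1) and in 7.67% of promoters. The letters GGG, 5 letters of any kind and CCC, a wide form of the NF-kB site, were present in 4 of the 7 and in 19.3% of promoters. All motifs were searched on both strands, and a match is a run of letters and no measured binding.

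Each library held between 11005921 and 11839562 exon reads, so 3 counts, the floor used here, were worth 0.280 and 0.277 CPM in wogonin 3 and 4 and 0.254 and 0.245 CPM in DMSO 1 and 2 (CPM is a count scaled to library size, here with TMM factors). No library was a copy of another. Introns took 7.96% and 5.61% of reads in wogonin 3 and 4 and 5.26% and 5.29% in DMSO 1 and 2. Of 12 markers of ovarian epithelial cancer, MECOM was the single one with enough reads for the test, and PAX8, MUC16, KRT8, KRT18 and EPCAM were at or near 0. Leukocyte markers, which matter for genes of the immune system, were at 0 in every library for 6 of 10, among them PTPRC, CD3E, CD2, MS4A1 and ITGAM, and CD68 was the single one tested. Their summed level was 22.1 and 15.4 CPM in wogonin 3 and 4, against 17.3 and 21.1 CPM in DMSO 1 and 2. Fibroblast and endothelial markers summed to 616 and 608 CPM in wogonin 3 and 4, against 779 and 721 CPM in DMSO 1 and 2, mostly from COL3A1, and VWF and CDH5 were at 0; the part of these markers in the results was not tested.

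After wogonin the set did not move one way. Transcripts of TAP2, B2M and HLA-E rose, those of ERAP1, HLA-B and TAPBP fell, and HLA-C, TAP1 and NLRC5 did not pass the test (edgeR quasi-likelihood test on total exon reads, Benjamini-Hochberg adjusted p under 0.05 over 13449 genes). The 3 higher and 3 lower genes stand against 32.3% of all genes tested that were higher and 31.5% that were lower, 63.8% in either direction. With 6 of 9 called, or 66.7%, the set was near that background. The median log2 fold change of the 9 was -0.04, and that of all genes tested was -0.00. In 4 of the genes both wogonin libraries lay above both DMSO libraries and in 3 they lay below, while 41% and 40.9% of all genes tested did so, 81.9% in either direction. All 9 genes passed the filter on low counts. No label states that both libraries of a treatment were grown as separate cultures, so the p-values here rest on a spread that may be technical only. With 4 libraries, the smallest p of an exact permutation test is 0.333. In bulk RNA a smaller number of cells making a transcript and less of it per cell cannot be told apart.

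**Figure D1:**
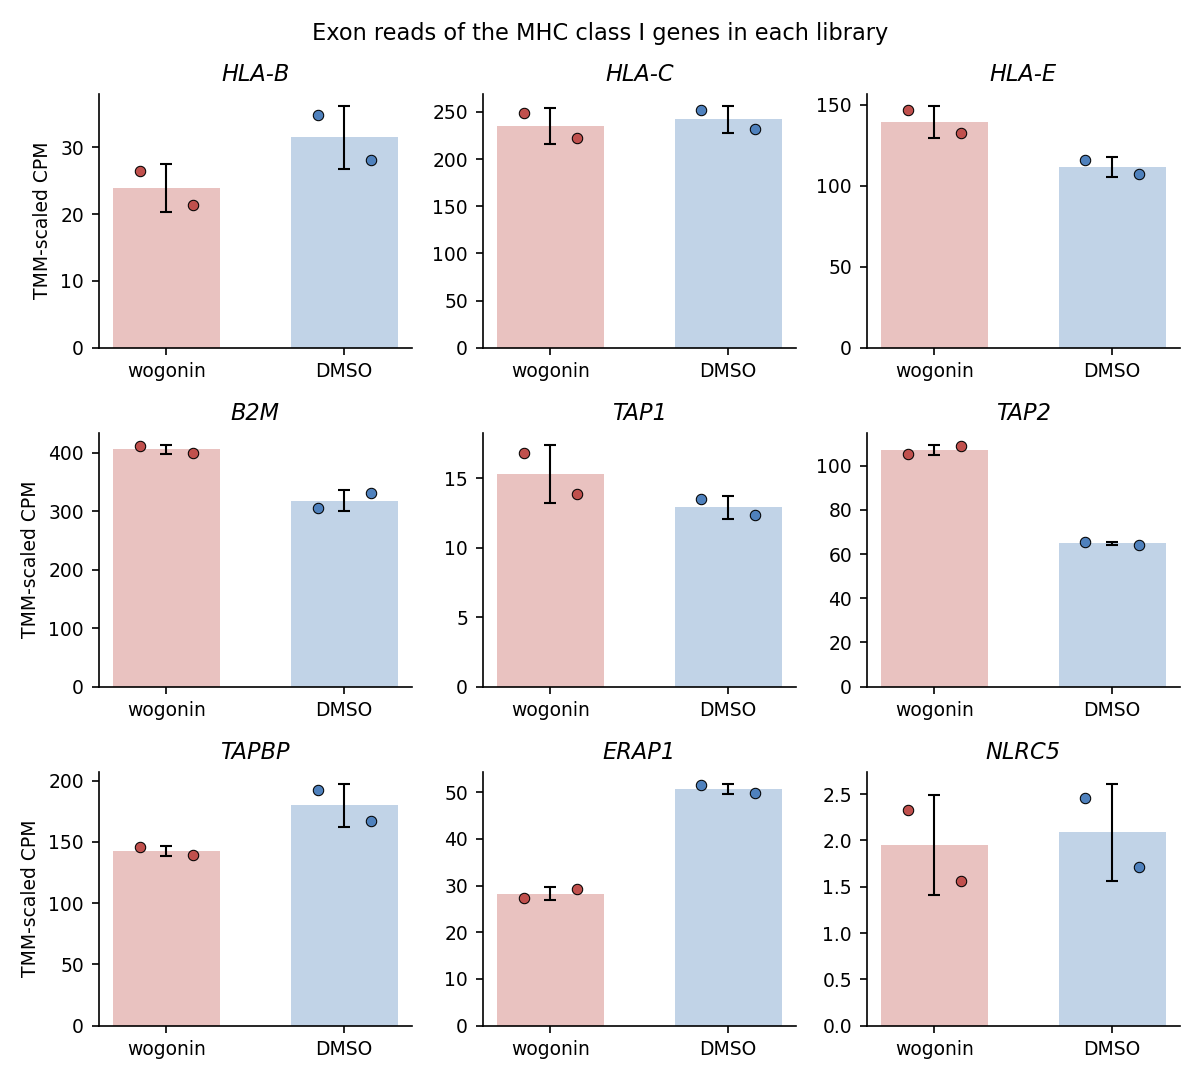
Exon reads of each of the 9 genes in TMM-scaled CPM, with 1 point per library, bars for the group means and error bars for the SD (n = 2 each), wogonin on the left and DMSO on the right of every panel. The wogonin points lie apart from the DMSO points for HLA-B, HLA-E, B2M, TAP1, TAP2, TAPBP and ERAP1 and overlap them for HLA-C and NLRC5.

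Levels of different genes can be compared only per exon length, for which the deposited TPM, a share of transcripts scaled by length, were used. The exon length listed was 3151 bases for B2M and 2507 for HLA-C, and ranks between genes depend on these lengths. B2M and HLA-C led the set: B2M stood at 500.5 ± 28.8 TPM after wogonin and 432 ± 30.2 TPM in DMSO, and HLA-C at 365 ± 43.0 TPM after wogonin and 413 ± 18.9 TPM in DMSO (SD, n = 2 each, as for all TPM here). The pair overlapped in DMSO and was apart after wogonin, where B2M was higher in both libraries. HLA-E followed with 182 ± 20.0 TPM after wogonin and 160 ± 6.57 TPM in DMSO, and TAPBP with 109 ± 7.34 TPM after wogonin and 152 ± 13.0 TPM in DMSO; these also overlapped in DMSO. TAP2 reached 59.2 ± 0.896 TPM after wogonin and 39.5 ± 0.146 TPM in DMSO. For HLA-B the level was 30.9 ± 5.74 TPM after wogonin and 44.7 ± 6.12 TPM in DMSO. TAP2 thus ranked above HLA-B in both wogonin libraries and below it in both DMSO libraries. In DMSO 2 the margin was small, with 39.6 TPM for TAP2 and 40.4 TPM for HLA-B. ERAP1 and TAP1 lay lower, ERAP1 at 13.8 ± 0.193 TPM after wogonin and 27.3 ± 0.243 TPM in DMSO, and TAP1 at 12.6 ± 2.19 TPM after wogonin and 11.6 ± 0.582 TPM in DMSO. NLRC5 was lowest, at 0.614 ± 0.193 TPM after wogonin and 0.719 ± 0.172 TPM in DMSO, far below the genes it is known to drive.

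**Figure D2:**
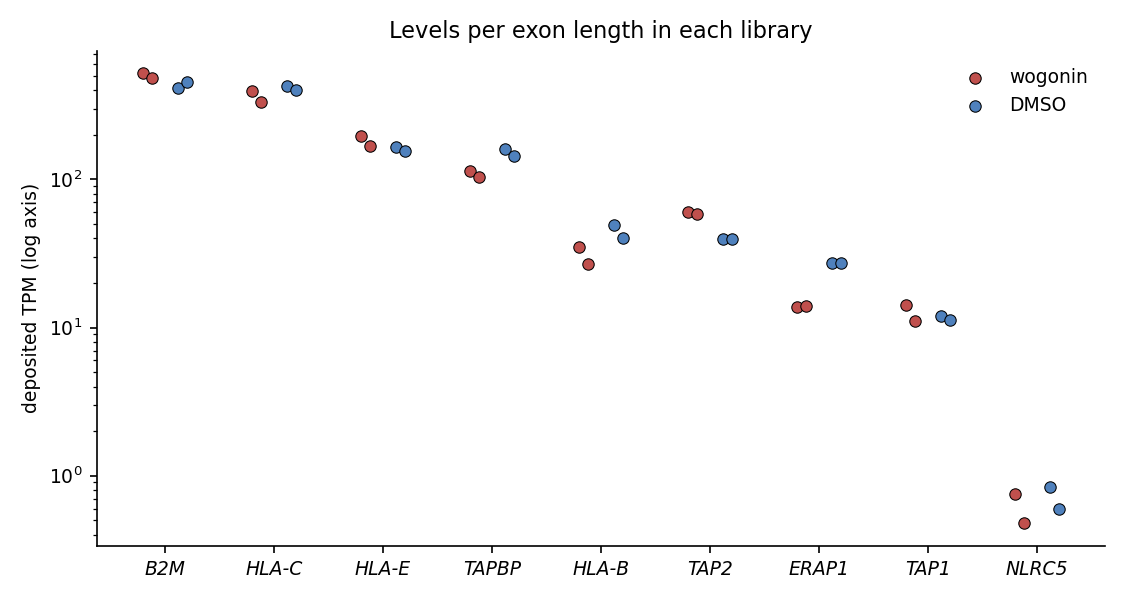
Deposited TPM of the 9 genes on a log axis, with 1 point per library, the wogonin libraries left of the DMSO libraries for each gene. B2M and HLA-C lie at the top, NLRC5 lies below 1 TPM in every library, and TAP2 lies above HLA-B after wogonin and below it in DMSO.

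The heavy chains bind the peptide and are the most variable part of the molecule between people. HLA-B (ENSG00000234745, chromosome 6, 31321649 to 31324965, minus strand, GRCh37) had 283 and 232 exon reads in wogonin 3 and 4, against 411 and 345 in DMSO 1 and 2, or 26.4 and 21.4 CPM after wogonin against 34.9 and 28.1 CPM in DMSO. Both wogonin libraries were below both DMSO libraries, by a small margin between wogonin 3 and DMSO 2. The log2 fold change was -0.40 ± 0.13 (SE; edgeR adjusted p = 0.016), or 0.759 times the DMSO level. The call did not hold with DESeq2 (adjusted p = 0.062), in exon-exon reads (-0.32, adjusted p = 0.16), without wogonin 4 (-0.26, adjusted p = 0.098) or without DMSO 1 (-0.25, adjusted p = 0.19), and over all 17 alternatives the value lay between -0.55 and -0.25. Class I loci resemble each other, so some HLA-B reads have more than 1 possible place. The share of HLA-B exon reads placed at a single locus was 87.6% and 84.1% in wogonin 3 and 4 (95% Wilson intervals 83.3 to 91.0% and 78.8 to 88.2%), against 79.8% and 83.8% in DMSO 1 and 2 (75.7 to 83.4% and 79.5 to 87.3%). These intervals cover counting error only and overlap between the groups. In the reads placed at HLA-B alone, the log2 fold change was -0.32 ± 0.12 (SE; edgeR adjusted p = 0.027).

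HLA-C (ENSG00000204525, chromosome 6, 31236526 to 31239907, minus strand), the most abundant heavy chain here and a ligand of the KIR receptors of NK cells, had 2665 and 2408 exon reads in wogonin 3 and 4, against 2976 and 2843 in DMSO 1 and 2. Scaled for depth these were 249 and 222 CPM after wogonin and 252 and 232 CPM in DMSO, so the groups overlapped. Its log2 fold change was -0.04 ± 0.07 (SE; edgeR adjusted p = 0.61), and it lay between -0.13 and 0.03 under the alternatives, none of which brought it past the threshold. Of its exon reads, between 98.3% and 98.6% were placed at a single locus. The share of HLA-C reads with more than 1 possible place was thus lower than that of HLA-B in every library, and its unique reads gave the same value of -0.04.

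HLA-E (ENSG00000204592, chromosome 6, 30457244 to 30461982, plus strand), the ligand of the NKG2A and NKG2C receptors, had 1570 and 1435 exon reads in wogonin 3 and 4, against 1366 and 1314 in DMSO 1 and 2. Its level was 147 and 132 CPM after wogonin and 116 and 107 CPM in DMSO, with no overlap. The log2 fold change was 0.32 ± 0.07 (SE; edgeR adjusted p = 0.00084), or 1.25 times the DMSO level. This higher count came from reads that do not cross an exon junction. Such reads numbered 1110 and 1012 in wogonin 3 and 4, against 905 and 835 in DMSO 1 and 2, whereas exon-exon reads numbered 460 and 423 after wogonin and 461 and 479 in DMSO. In exon-exon reads alone the log2 fold change was 0.07 ± 0.09 (SE; edgeR adjusted p = 0.55). Exon-exon reads made up 29.3% and 29.5% of HLA-E exon reads in wogonin 3 and 4 (95% Wilson intervals 27.1 to 31.6% and 27.2 to 31.9%), against 33.7% and 36.5% in DMSO 1 and 2 (31.3 to 36.3% and 33.9 to 39.1%). Over all genes that share was between 49.6% and 50.3% in the 4 libraries. Of HLA-E exon reads, 99.9% in each wogonin library and 100% in each DMSO library were placed at HLA-E alone.

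B2M (ENSG00000166710, chromosome 15, 45003675 to 45011075, plus strand) encodes the light chain that every class I heavy chain needs to reach the surface. It had 4413 and 4343 exon reads in wogonin 3 and 4, against 3605 and 4057 in DMSO 1 and 2, or 412 and 400 CPM after wogonin against 306 and 331 CPM in DMSO. Both wogonin libraries were above both DMSO libraries. B2M rose, with a log2 fold change at 0.35 ± 0.06 (SE; edgeR adjusted p = 5.4e-05), or 1.28 times the DMSO level, and in exon-exon reads it was 0.33 ± 0.09 (SE; edgeR adjusted p = 0.0031). B2M stayed past the threshold in all 17 alternatives, between 0.26 and 0.40. Every exon read of B2M was placed at a single locus in each of the 4 libraries.

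TAP1 and TAP2 together form the transporter that pumps peptides into the endoplasmic reticulum, and each needs the other. TAP2 (ENSG00000250264, chromosome 6, 32781544 to 32806599, minus strand) showed the largest rise of the 9 genes. It had 1130 and 1181 exon reads in wogonin 3 and 4, against 770 and 789 in DMSO 1 and 2, or 105 and 109 CPM after wogonin against 65.3 and 64.4 CPM in DMSO. The groups were far apart compared with the distance between libraries of a group. For TAP2 the fit gave a log2 fold change that was 0.73 ± 0.07 (SE; edgeR adjusted p = 2.1e-07), or 1.65 times the DMSO level, and it was between 0.57 and 0.75 and past the threshold in all 17 alternatives. Intron reads of TAP2 were also more numerous, 90 and 90 in wogonin 3 and 4, against 37 and 29 in DMSO 1 and 2. Few of them were uniquely placed. Unique reads over the whole gene numbered 676 and 707 in wogonin 3 and 4, of which 655 and 680 were exon reads. In DMSO 1 and 2 they numbered 492 and 499, of which 491 and 496 were exon reads. Unique intron reads were not tested on their own. In the fit on total intron reads 11.3% of 10495 genes were higher and 8.82% lower, 20.1% in either direction. The log2 fold change of TAP2 there was 1.17 ± 0.32 (SE; edgeR adjusted p = 0.017). The adjusted p was 0.081 with DESeq2, 0.11 without DMSO 1 and 0.29 without DMSO 2. Without wogonin 3, the library with the largest share of intron reads, the value was 1.45 (adjusted p = 2.5e-07), and without wogonin 4 it was 0.82 (adjusted p = 0.0072).

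TAP1 (ENSG00000168394, chromosome 6, 32812986 to 32821755, minus strand) was much lower and did not pass the test. It had 180 and 150 exon reads in wogonin 3 and 4, against 159 and 151 in DMSO 1 and 2, or 16.8 and 13.8 CPM after wogonin against 13.5 and 12.3 CPM in DMSO. The wogonin libraries were both above the DMSO libraries, wogonin 4 by little. The log2 fold change was 0.25 ± 0.14 (SE; edgeR adjusted p = 0.14); it was past the threshold only without wogonin 4 (0.38, adjusted p = 0.046) and over the alternatives the adjusted p reached 0.78. Some reads of both transporter genes were not uniquely placed, and where else they fit was not tested. TAP1 lies within the bounds of PSMB9 on the opposite strand, and TAP2_1 overlaps TAP2_2 and HLA-DOB on its own strand. In TAP1 the reads placed at a single gene equalled the unique exon-exon reads in all libraries, 114 and 87 after wogonin and 91 and 113 in DMSO. In TAP2 the unique exon reads were 655 and 680 after wogonin and 491 and 496 in DMSO, of which 655 and 680 after wogonin and 491 and 494 in DMSO crossed a junction. The unique reads thus left out almost all reads that lie within 1 exon of these genes. In unique reads the TAP2 value was 0.59 ± 0.08 (log2, SE; edgeR adjusted p = 1.6e-06), and TAP1 had 0.14 ± 0.17 (SE; edgeR adjusted p = 0.5). The overlapping genes themselves held few exon reads, with 5 and 4 for HLA-DOB after wogonin and 0 and 0 in DMSO, and 3 and 1 for PSMB9 after wogonin and 9 and 11 in DMSO.

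TAPBP (ENSG00000231925, chromosome 6, 33267471 to 33282164, minus strand), or tapasin, bridges the transporter and the waiting heavy chain and edits the peptides that are kept. It had 1559 and 1514 exon reads in wogonin 3 and 4, against 2268 and 2049 in DMSO 1 and 2, or 145 and 140 CPM after wogonin against 192 and 167 CPM in DMSO. Both wogonin libraries were below both DMSO libraries. TAPBP fell, with a log2 fold change at -0.33 ± 0.07 (SE; edgeR adjusted p = 0.00067), or 0.793 times the DMSO level, and in exon-exon reads it was -0.42 ± 0.11 (SE; edgeR adjusted p = 0.002). TAPBP was past the threshold in all 17 alternatives, between -0.44 and -0.25. Its intron reads, 83 and 57 in wogonin 3 and 4 and 52 and 46 in DMSO 1 and 2, did not pass the test (log2 fold change 0.20 ± 0.28, SE; edgeR adjusted p = 0.67). Tapasin and TAP2, partners in the loading complex, thus changed in opposite directions in these cells.

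ERAP1 (ENSG00000164307, chromosome 5, 96096521 to 96143803, minus strand) cuts residues from the front end of peptides until they suit the class I groove. It showed the largest fall of the 9 genes, with 292 and 318 exon reads in wogonin 3 and 4, against 607 and 611 in DMSO 1 and 2, or 27.3 and 29.3 CPM after wogonin against 51.5 and 49.8 CPM in DMSO. The groups were well apart. ERAP1 fell to 0.559 times the DMSO level, with a log2 fold change at -0.84 ± 0.09 (SE; edgeR adjusted p = 7.6e-07), which lay between -0.93 and -0.78 and past the threshold in all 17 alternatives. ERAP1 overlaps CAST, which encodes the calpain inhibitor calpastatin, on the opposite strand. CAST also fell, with 823 and 913 exon reads in wogonin 3 and 4, against 1847 and 1935 in DMSO 1 and 2 (log2 fold change -0.97, edgeR adjusted p = 5.6e-09). The sources used here do not say whether the counting used strand, so reads within the overlap cannot be told apart. The share of ERAP1 exon reads placed at a single gene was 62.3% and 66.0% in wogonin 3 and 4. In DMSO 1 and 2 it was 64.7% and 67.6%. In these unique reads the log2 fold change was -0.88 ± 0.11 (SE; edgeR adjusted p = 1.7e-07). In exon-exon reads ERAP1 had 134 and 169 in wogonin 3 and 4, against 318 and 306 in DMSO 1 and 2, with a log2 fold change there of -0.89 ± 0.12 (SE; edgeR adjusted p = 3.8e-06). Intron reads of ERAP1 were few, 19 and 8 after wogonin and 16 and 19 in DMSO, and did not pass the test (edgeR adjusted p = 0.27). The intron reads of the other 6 genes, apart from TAP2, TAPBP and ERAP1, were too few for it.

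NLRC5 (ENSG00000140853, chromosome 16, 57023397 to 57117443, plus strand), the transactivator of class I genes, had 25 and 17 exon reads in wogonin 3 and 4, against 29 and 21 in DMSO 1 and 2. Its level was 2.33 and 1.57 CPM after wogonin and 2.46 and 1.71 CPM in DMSO, with overlapping groups. Its log2 fold change was -0.10 ± 0.37 (SE; edgeR adjusted p = 0.84). At this depth the SE is wide, and the value ran from -0.40 to 0.17 over the alternatives, so a change of the size seen in HLA-B or B2M was not detectable in NLRC5.

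**Figure D3:**
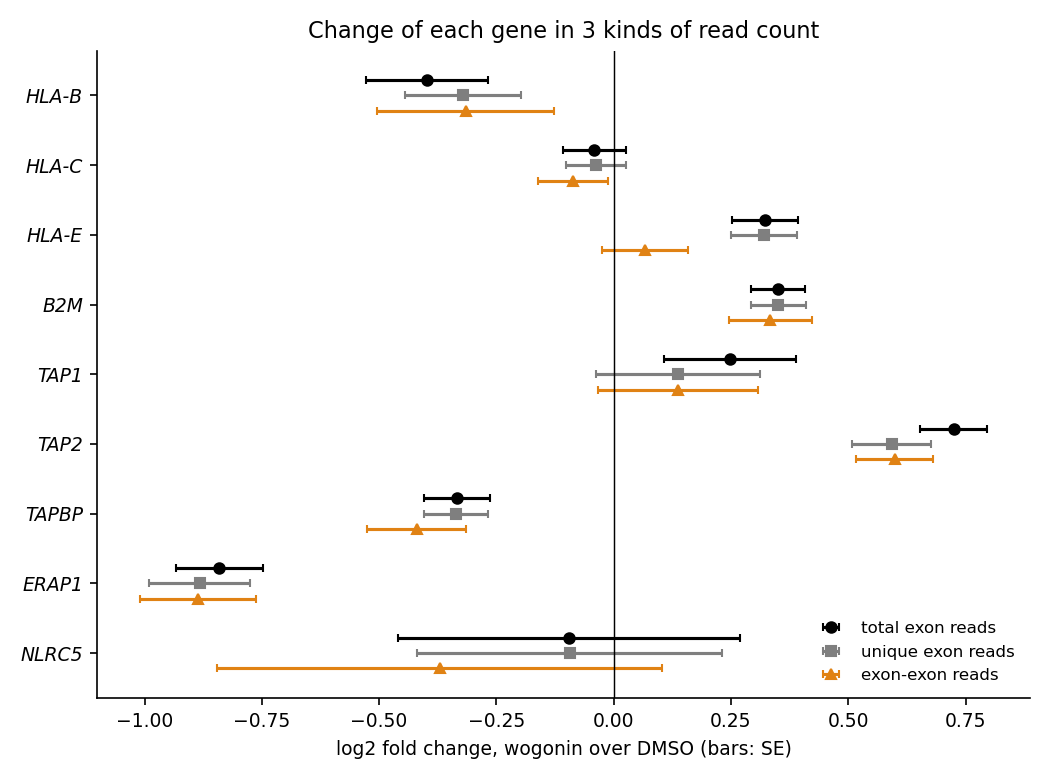
Log2 fold change of wogonin over DMSO for each gene in total exon reads (circles), unique exon reads (squares) and exon-exon reads (triangles), with bars of 1 SE. HLA-E lies at 0.32 in total exon reads and 0.07 in exon-exon reads, NLRC5 has the widest bars, and all 9 genes keep their side of 0 in the 3 kinds of read.

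Over unique exon reads, 3 of the genes were higher and 3 lower, where 32.2% and 32.4% of 12394 genes were, 64.6% in either direction. Over exon-exon reads, 2 were higher (B2M and TAP2) and 2 lower (TAPBP and ERAP1), where 27.6% and 28% of 11251 genes were, 55.7% in either direction. HLA-B and HLA-E are the 2 genes that lost their call there.

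Other class I loci present lipids or metabolites, serve as ligands of NK cell receptors or, like HFE, have other roles. Of 15 such genes 6 were tested, of which 4 were higher and 2 lower, where 32.3% of all genes tested were higher and 31.5% lower. Their median log2 fold change was 0.83, against -0.00 for all genes tested. MICA and MICB, stress-induced ligands of the NKG2D receptor that lie near HLA-B, both rose. MICA had 1169 and 1146 exon reads in wogonin 3 and 4, against 615 and 660 in DMSO 1 and 2 (log2 fold change 1.02 ± 0.07, SE; edgeR adjusted p = 6.6e-09). MICB had 1015 and 1037 exon reads in wogonin 3 and 4, against 537 and 536 in DMSO 1 and 2 (1.09 ± 0.08, SE; edgeR adjusted p = 4.5e-09). The 2 genes resemble each other, and in reads placed at a single gene the log2 fold change was 0.87 for MICA and 1.09 for MICB. Among the other NKG2D ligands, ULBP2 rose with 18 and 25 reads after wogonin against 13 and 7 in DMSO (log2 fold change 1.25, edgeR adjusted p = 0.018), and ULBP3 fell with 4 and 7 reads after wogonin against 24 and 19 in DMSO (-1.79, edgeR adjusted p = 0.0033). Each of these lost its call under 3 of 15 alternatives. MR1, which presents vitamin B metabolites to MAIT cells, rose (log2 fold change 0.64), and HFE, a regulator of iron uptake, fell by 0.80 on the log2 scale. MR1 lost its call in exon-exon reads (adjusted p = 0.13). HLA-F had 8 and 5 reads after wogonin and 2 and 3 in DMSO, too few for the test, and HLA-G had 0 in every library.

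Of 11 chaperones and membrane proteins of the endoplasmic reticulum on which class I folding relies, 6 were higher and 2 lower, and 3 did not pass, against 32.3% higher and 31.5% lower over all genes tested. The list's median log2 fold change was 0.14. ERP29, counted as higher, lost its call in 12 of 17 alternatives. The lower genes, TAPBPL and UGGT1, lost theirs in 7 and 4, and with DESeq2 0 genes of the list were lower. The largest rise was in SEC61A1, the channel subunit through which new chains enter (595 and 596 CPM in wogonin 3 and 4, against 281 and 272 CPM in DMSO 1 and 2; log2 fold change 1.11, edgeR adjusted p = 9e-11). CANX (calnexin), which holds the free heavy chain, also rose (log2 fold change 0.68, edgeR adjusted p = 3e-08), as did the disulfide isomerase P4HB (0.61). CALR (calreticulin) and PDIA3 (ERp57), members of the loading complex itself, rose less, by 0.19 (edgeR adjusted p = 0.0053) and 0.15 (edgeR adjusted p = 0.019). The calls of CALR and PDIA3 did not hold with library totals alone, with upper-quartile scaling, with gene reads or without either DMSO library, and that of PDIA3 also not without wogonin 4 (adjusted p up to 0.18 for CALR and 0.35 for PDIA3). In the settings that CALR and PDIA3 both failed, 3 chaperones were higher.

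Of the immunoproteasome subunits, which interferon induces, PSMB8 and PSMB9 were nearly silent. PSMB8 had 0 reads in every library, and PSMB9 had 3 and 1 in wogonin 3 and 4 and 9 and 11 in DMSO 1 and 2. PSMB10 was expressed, with 107 and 87 exon reads in wogonin 3 and 4, against 116 and 112 in DMSO 1 and 2. It did not pass the test (log2 fold change -0.08, edgeR adjusted p = 0.71). In the list of immunoproteasome and trimming genes, 12 of 14 were tested, of which 4 were higher, 1 lower and 7 not past the threshold (median log2 fold change 0.13), where 63.8% of all genes tested were called in either direction. Those that rose were the cytosolic peptidases NPEPPS (0.67), THOP1 (0.57) and LAP3 (0.37) and the proteasome assembly factor POMP (0.57). The gene that fell was ERAP2, the partner of ERAP1 in trimming, with 204 and 244 exon reads in wogonin 3 and 4, against 354 and 352 in DMSO 1 and 2 (log2 fold change -0.50 ± 0.11, SE; edgeR adjusted p = 0.00099). Both trimming aminopeptidases of the endoplasmic reticulum were therefore lower after wogonin, and ERAP2 was so in all 17 alternatives.

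In the list for transcription of class I genes, 14 of 18 tested were lower, 2 higher and 2 not past the threshold. Over all genes tested 31.5% were lower and 32.3% higher. The list holds transcription factors, coactivators and EZH2, which is known to silence class I genes in some tumours and is among the lower genes. The median log2 fold change of the list was -0.54, and the number lower was between 13 and 15 over the alternatives. All 3 NF-Y subunits, which bind the CCAAT letters shown above, fell: NFYC had 46.4 and 45.4 CPM in wogonin 3 and 4, against 106 and 117 CPM in DMSO 1 and 2 (log2 fold change -1.28 ± 0.08, SE; edgeR adjusted p = 1.2e-09), and NFYA and NFYB had log2 fold changes of -0.50 and -0.45. The 3 RFX subunits, which bind the X box, also fell: RFX5 by 0.48, RFXAP by 1.23 and RFXANK by 0.31 on the log2 scale. So did CREB1 (-0.95) and ATF1 (-0.58), which bind the TGACG letters, and the coactivators CREBBP (-0.62) and EP300 (-0.37). The falls of the NF-Y and RFX subunits and of CREB1 were past the threshold in all 17 alternatives.

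Of the interferon-responsive factors, IRF9 and STAT2, partners in the complex that answers type I interferon, fell. IRF9 had 51 and 67 exon reads in wogonin 3 and 4, against 191 and 222 in DMSO 1 and 2 (log2 fold change -1.65 ± 0.17, SE; edgeR adjusted p = 2.6e-07), and STAT2 had 268 and 315 after wogonin, against 610 and 590 in DMSO (-0.88 ± 0.10, SE; edgeR adjusted p = 1e-06). IRF1, which binds interferon-responsive promoters, did not pass (-0.02, edgeR adjusted p = 0.92). IRF2 (-0.57) and EZH2 (-0.59), a histone methyltransferase known to silence class I genes in some tumours, were lower. The 2 genes that rose were the NF-kB subunits NFKB1 (0.36) and RELA (0.25), of which RELA lost its call with library totals alone and with upper-quartile scaling. CIITA, the class II transactivator, had 7 and 2 reads after wogonin and 1 and 4 in DMSO and was not tested.

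The receptors and kinases upstream of these factors were mixed, with 2 of 10 tested genes higher, 3 lower and 5 not past the threshold (median log2 fold change 0.03), where 63.8% of all genes tested were called. The kinase JAK1 (-0.62), the feedback inhibitor SOCS3 (-1.83) and the phosphatase PTPN2 (-0.38) were lower, and the kinase TYK2 (0.54) and the phosphatase PTPN11 (0.20) were higher. PTPN11 lost its call with library totals alone, upper-quartile scaling and gene reads (adjusted p up to 0.11), and PTPN2 with gene reads (adjusted p up to 0.17). The interferon genes IFNG, IFNB1 and IFNL1 had 0 reads in every library. None of the 4 interferon receptor subunits tested, IFNGR1, IFNGR2, IFNAR1 and IFNAR2, passed the test.

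Among genes that take class I chains out of the membrane or send them to degradation, 6 of 10 tested were higher, 3 lower and 1 not past the threshold (median log2 fold change 0.34), where 32.3% of all genes tested were higher and 31.5% lower. TMEM127, counted as higher, lost its call in 9 of 17 alternatives, and WWP2, counted as lower, in 5. DERL1, a channel component for chains leaving the endoplasmic reticulum (0.78), and the ubiquitin ligases SYVN1 (0.69), STUB1 (0.58) and TMEM129 (0.57) rose. NBR1, an autophagy receptor, had the largest change of the list and went the other way, with 545 and 594 exon reads in wogonin 3 and 4, against 1814 and 1902 in DMSO 1 and 2 (log2 fold change -1.55 ± 0.07, SE; edgeR adjusted p = 4.9e-11). MHC class II genes were close to silent: of 12 genes, HLA-DRB1 (-0.25, edgeR adjusted p = 0.64) and HLA-DMA (0.39, edgeR adjusted p = 0.1) were tested and neither passed, and HLA-DRA had 0 reads throughout.

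**Figure D4:**
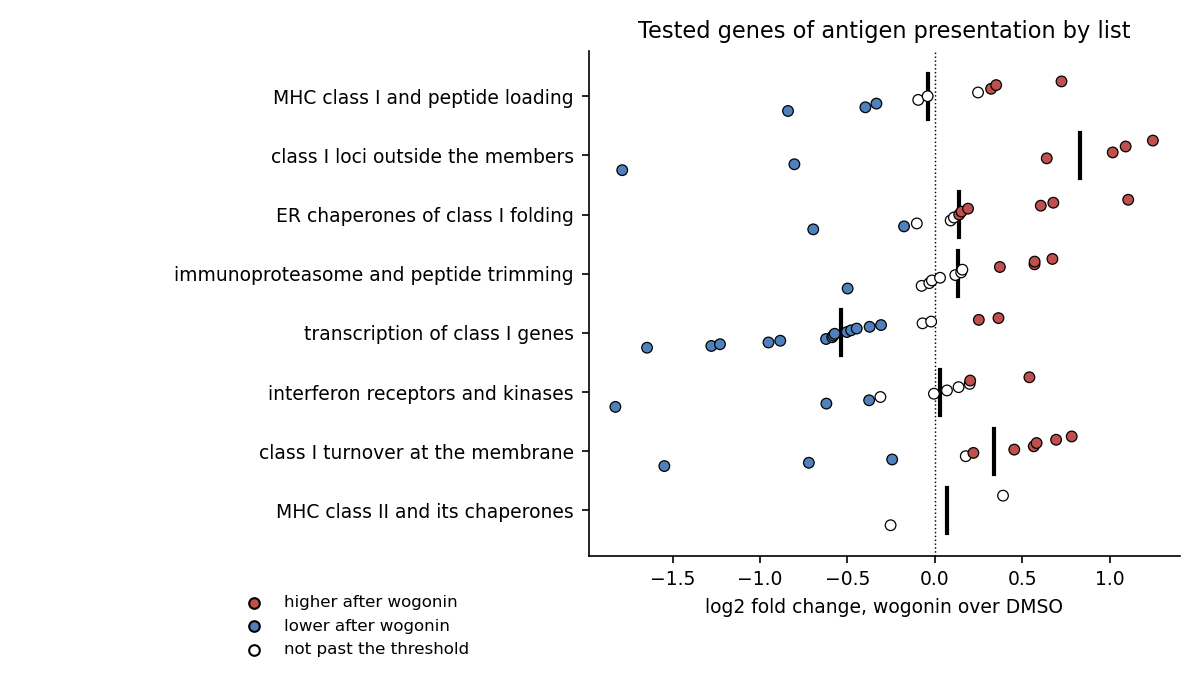
Log2 fold change of wogonin over DMSO for the tested genes of the class I set and of 7 other lists of antigen presentation, with filled points for genes past the threshold (adjusted p under 0.05), open points for the rest and a black line at each list's median. The list for transcription of class I genes has 14 of 18 genes on the lower side past the threshold, and the class I set has 3 on each side.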

How the data were processed

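Per the labels' protocols, a column kit gave the RNA and a SMARTER mRNA kit the libraries. Per the file headers, each of the 4 deposited tables holds 1 row per gene with counts of reads in exons, introns and across exon junctions, in a total and a uniquely placed form. The authors also deposited TPM and RPKM values and, per the file headers, the fraction of reads that are unique. Builds GRCh 37 and hg 19 are named in the submitters' processing notes. The aligner, counting program, annotation release and strand setting are not stated in the sources used.

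Total exon counts were tested as deposited in R 4.3.3 by edgeR 4.0.16 (TMM scaling, filterByExpr, robust quasi-likelihood fit on treatment alone, 2-sided). The Benjamini-Hochberg adjustment ran over the 13449 genes that passed the filter, and calls were made at 0.05. Intron reads are gene reads less exon reads and had a fit of their own. TPM served to compare levels between genes. RPKM and the deposited fractions were not used in tests. Unique and exon-exon shares are given with 95% Wilson intervals. CPM means ± SD are over the 2 libraries of a group. Chi-square over degrees of freedom of the exon counts was 6.77 for the wogonin pair, 2.86 for the DMSO pair and between 51.7 and 56.0 across groups, so no library was a copy of another.

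The 9 genes, the other lists and the marker lists were chosen with earlier results of these data known. All 9 are named whatever their p. In each other list the up to 5 genes with the smallest adjusted p are named, and every gene of a list with 5 or fewer tested. IRF1, RFX5, CIITA, PSMB8, PSMB9, CALR, CANX, PDIA3, HLA-F and HLA-G are named whatever their p, and further genes were named after their values were seen. Some genes that the rule names are not reported here. Other settings tried were 3 other scalings, no filter and a filter at a mean of 10 counts, DESeq2 1.42.0, limma-voom 3.58.1, the newer quasi-likelihood method, the other count columns and leaving out each library. Total and unique exon-exon reads were added after seeing the data. Promoters came from RefSeq (GRCh38.p14) and were aligned with Biopython 1.88.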

Additional observations from a re-analysis of the deposited data

How the results depend on the processing

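Under 17 alternatives the calls of B2M, TAP2, TAPBP and ERAP1 held each time, and none of the 6 called genes reversed; HLA-B and HLA-E lost their calls as given in the report. The number of the 9 genes that were higher ran from 2 to 4 and the number lower from 2 to 3. Without 1 library at a time, the log2 fold change of HLA-B was between -0.55 and -0.25. The count of genes with more intron reads, 1 in total (TAP2), was 0 with DESeq2, and between 0 and 1 when a library was left out, being 0 without DMSO 1 and 0 without DMSO 2. IRGQ, an autophagy-linked gene of the turnover list, had a log2 fold change of 0.45 in total exon reads and -0.31 in total exon-exon reads (edgeR adjusted p = 0.58) and -0.31 in unique exon-exon reads (edgeR adjusted p = 0.57); the cause was not tested. Over all genes, DESeq2 called 6701 against 8577. Library totals alone and upper-quartile scaling each put the median over all genes at -0.09, and no filter put it at 0.06, which matters for differences of that size, such as those of CALR and PDIA3. No paired analysis was possible because the groups share no replicate numbers. NLRC5 had few reads, HLA-F, PSMB9 and CIITA had too few for a test, and with 2 libraries a group the spread itself is poorly known.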

Other observations

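The following genes and ratios were chosen after their values were seen and are given as values without a test of the ratio. HLA-F-AS1, an antisense gene at the HLA-F locus, had 192 and 208 exon reads in wogonin 3 and 4, against 63 and 48 in DMSO 1 and 2 (log2 fold change 2.00 ± 0.17, SE; edgeR adjusted p = 3.6e-08); without a known strand setting its reads and those of HLA-F cannot be told apart. The class I pseudogenes looked at did not move one way. HLA-H was lower, with 18 and 8 reads after wogonin against 37 and 29 in DMSO (-1.18, edgeR adjusted p = 0.017). So was HLA-L, with 9 and 5 after wogonin against 40 and 26 in DMSO (-2.06, edgeR adjusted p = 0.00066). HLA-J had 7 and 7 reads after wogonin against 3 and 2 in DMSO, and HLA-V 6 and 5 against 2 and 4. These latter counts were higher after wogonin but too few for the test. Reads of class I loci may be split between copies. Of the constitutive proteasome subunits that the immunoproteasome replaces, PSMB5 (0.38, edgeR adjusted p = 4.4e-05) and PSMB7 (0.24, edgeR adjusted p = 0.0042) were higher, and PSMB6 did not pass (-0.11, edgeR adjusted p = 0.2).

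Summed over HLA-B, HLA-C and HLA-E, heavy-chain TPM was 627 and 529 in wogonin 3 and 4 and 640 and 596 in DMSO 1 and 2, so the groups overlapped. HLA-C made up 63.1% and 63.2% of that sum after wogonin and 66.6% and 67.1% in DMSO. The ratio of B2M TPM to the summed heavy-chain TPM was 0.831 and 0.907 in wogonin 3 and 4, against 0.642 and 0.762 in DMSO 1 and 2. The ratio of HLA-E to HLA-B exon reads was 5.55 and 6.19 after wogonin, against 3.32 and 3.81 in DMSO. In exon-exon reads that ratio lay closer between the groups, at 5.11 and 6.51 in wogonin 3 and 4, against 3.87 and 4.99 in DMSO 1 and 2. The ratio of TAP2 to TAPBP exon-exon reads was 1.88 and 2.23 after wogonin, against 0.938 and 1.09 in DMSO, and did not overlap between the groups in total or unique exon reads either. These ratios do not depend on the scaling between libraries, but those of TPM depend on the exon lengths listed.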
